A study of Mus musculus with 2 samples.

Results

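Transcript levels of 10 genes of the hypoxia response and of glycolysis, out of 27998 genes in the count tables, were described across the cell classes of mouse ear skin in control and in hapten-elicited allergic contact dermatitis (ACD). The genes were taken by name: *Hif1a*, *Slc2a1*, *Hk2*, *Pfkfb3*, *Pgk1*, *Ldha*, *Vegfa*, *Adm*, *Bnip3* and *Ndrg1*, and all 10 were present in both tables. The data were single-cell RNA-seq counts from ear skin of male ICR mice aged 7 to 8 weeks, an outbred stock, with no allele or transgene named. The control group was labelled healthy ear skin, and whether it was painted with solvent or left untreated is not given in the sources used here. The ACD group was ear skin of mice sensitized on the dorsal skin with 1.0% 2,4-dinitrofluorobenzene (DNFB) and elicited 6 days later with 0.2% DNFB on each ear, and sampled at 60 hr. Skin of both groups was digested with collagenase D and DNase1, and dead cells were removed. Each group was 1 library, and how many mice gave skin to a library is not given in the sources used here. There was thus no replicate, no test between control and ACD was possible, and every interval below is a 95% interval that covers counting error only.

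Hypoxia-inducible factor is a pair of proteins whose oxygen-labile subunit is encoded by *Hif1a*; when oxygen is low the subunit escapes destruction, enters the nucleus and switches on genes that carry its short DNA motif. Its target genes bring glucose into the cell, break it down without oxygen, call for blood vessels and remove mitochondria. Glycolysis is also raised in activated lymphocytes and phagocytes when oxygen is plentiful, and ear cartilage, which has no vessels of its own, is known for living on glycolysis. *Hif1a* is controlled largely at the level of its protein, which the present data do not measure.

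After removal of barcodes with 200 or fewer or 5000 or more genes, more than 25000 UMIs (unique molecular identifiers, which count RNA molecules) or 8% or more mitochondrial UMIs, 12213 of 12895 control and 11665 of 13163 ACD barcodes were kept, with medians of 6850 and 7447 UMIs. Cells were gated into classes by marker genes that include none of the 10 genes, and each class was named X-like after its markers. The comparison used 13 classes with at least 20 cells in each library. Every marker of their lists was at least 2-fold higher inside the class than outside, except 2 of 16 for chondrocyte-like cells, 1 of 6 for pericyte-like cells and, in control, 1 of 14 for fibroblast-like cells. Many of these markers also set the gates, so this is no independent check of the class names. T/NK/ILC-like lymphocytes made up 6.33% of control cells (773 cells) and 27.6% of ACD cells (3223 cells). Median UMIs per cell were higher in ACD in 13 of the 15 gated classes, for example 5042 against 9370.0 in endothelial-like cells. Cells passing more than 1 gate were 8.02% and 10.3% of the libraries, cells passing none were 12.0% and 8.59%, and 47 kept barcodes occurred in both libraries. Doublets were called with Scrublet, which marked 4.91% and 3.66% of cells, and were removed only in an alternative.

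Levels were the UMIs of a gene in a class per 1000000 UMIs of that class, written UPM, and a difference was the log2 ratio of the ACD level to the control level. A gene was counted as past 2-fold when the ratio, with 10 UPM added to both levels, reached 2, among genes with at least 50 UMIs in the class. Of 130 pairs of a gene and a class, 93 had at least 50 UMIs and were counted as measured. None of the 93 was past 2-fold higher in ACD, where 1.51% of all 78250 measured pairs of a gene and a class were. The lower call was made for 1 pair, *Hk2* in T/NK/ILC-like lymphocytes, against 0.902% of all pairs. At 1.5-fold, 8 of the 93 pairs were higher, against 4.11% of all pairs, and 10 of the 93 were lower, against 4.89%. The members' counts at 2-fold were thus near the background. Those at 1.5-fold were above it in both directions, and this was not tested. Since the genes were chosen by name nothing is read from the list as a whole. The class in which each gene was high is given next, gene by gene, in the order of the pathway.

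**Figure D1:**
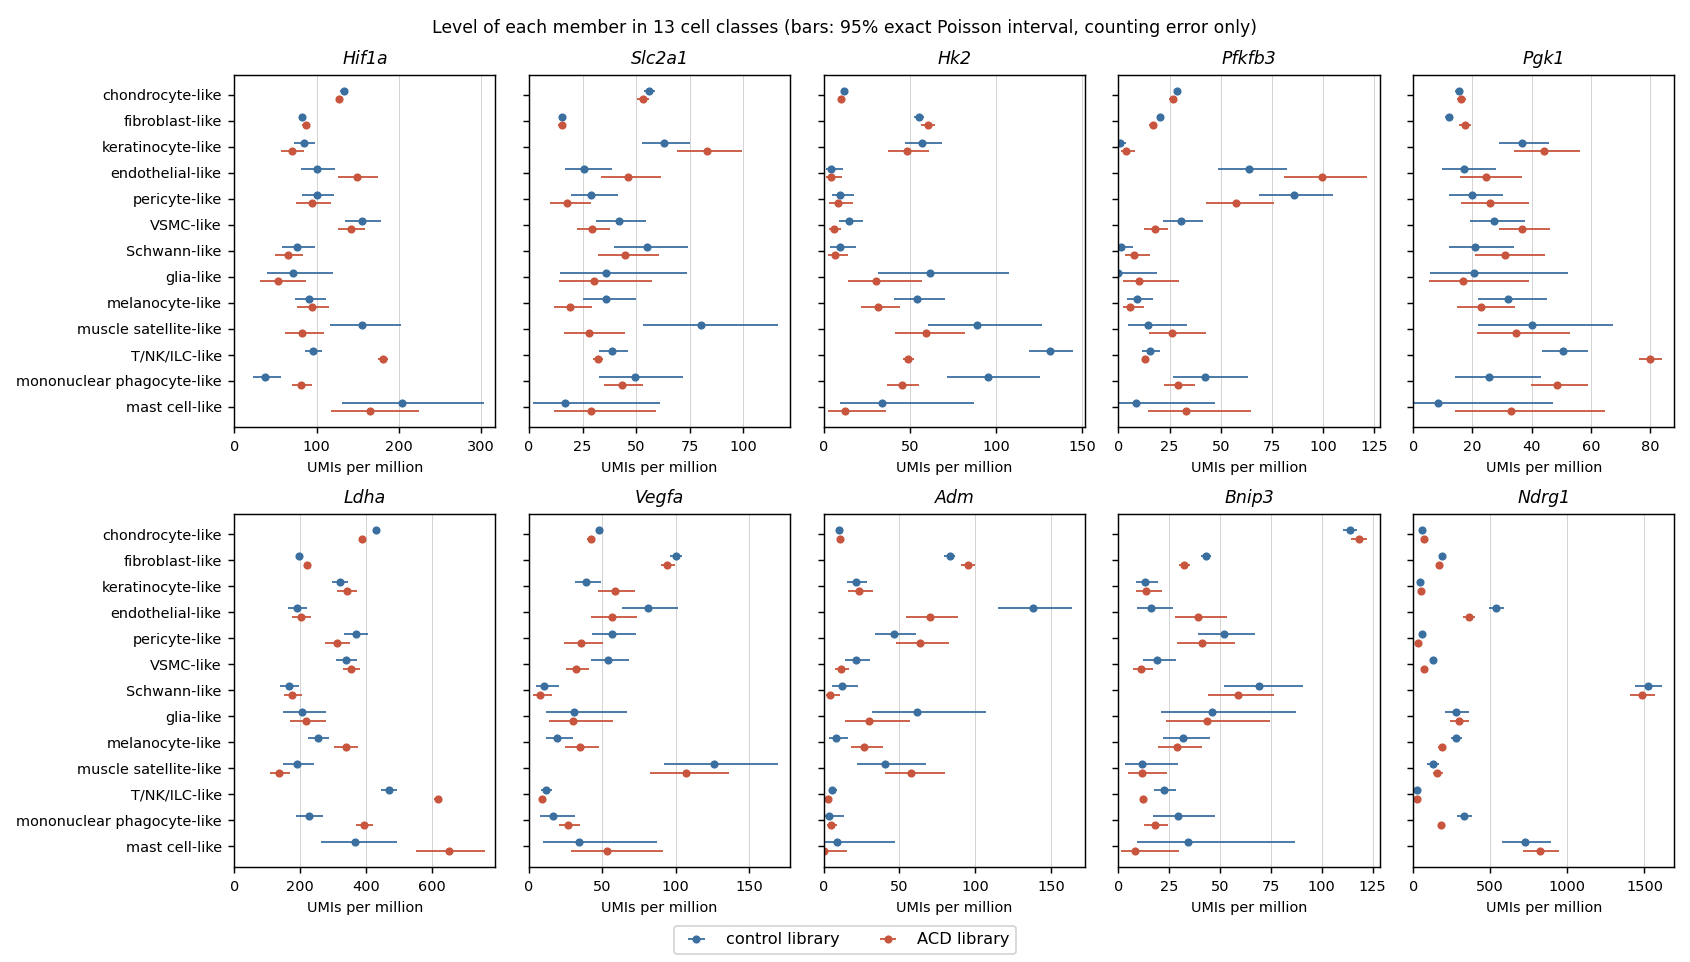
Level of each of the 10 genes (x axis, UPM) in 13 cell classes (y axis) in the control and ACD libraries. Points are levels and bars are 95% exact Poisson intervals. The high classes differ between genes, for example Schwann-like cells for *Ndrg1* (1525 UPM in control) and chondrocyte-like cells for *Bnip3* (114), while *Hk2* in T/NK/ILC-like cells goes from 131 to 49.0.

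*Hif1a* (ENSMUSG00000021109, chr12:73901375-73947530 on the plus strand, in GRCm38), the regulator, was found in all 13 classes, at 36.7 to 204 UPM in control. In T/NK/ILC-like lymphocytes it was at 95.8 (85.5 to 107) in control and 181 (175 to 187) in ACD. This was a log2 ratio of 0.92 (0.75 to 1.09), and it put lymphocytes first among the 13 classes in ACD, although the next, mast cell-like cells at 164 (118 to 224), did not differ from them beyond counting error. Mononuclear phagocyte-like cells, the lowest class in control, went from 36.7 (22.4 to 56.7) to 81.5 (69.8 to 94.5) UPM (20 and 174 UMIs), or a log2 ratio of 1.15 (0.48 to 1.90). Lymphocytes and phagocytes were thus higher in ACD, with intervals of the 2 libraries that did not overlap. Endothelial-like cells had a smaller difference of 0.57 (0.18 to 0.96). Muscle satellite-like cells had the opposite one, from 155 (117 to 202) to 82.3 (61.1 to 109), with a log2 ratio of -0.91 (-1.499 to -0.33), or -1.85 with every cell thinned to 2000 UMIs. In chondrocyte-like and fibroblast-like cells, the largest resident classes, the ratios were -0.06 (-0.12 to 0.00) and 0.08 (-0.02 to 0.18).

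*Slc2a1* (ENSMUSG00000028645, chr4:119108711-119137983 on the plus strand) encodes GLUT1, the basal glucose transporter. It was lowest in fibroblast-like cells in both libraries, at 15.5 (14.0 to 17.1) and 15.2 (13.3 to 17.2) UPM. In control, muscle satellite-like cells (80.4 [53.4 to 116]), keratinocyte-like cells (63.1 [52.7 to 75.0]) and chondrocyte-like cells (56.2 [53.8 to 58.7]) were the highest of the 13 classes, and their intervals overlapped from each to the next. In ACD the keratinocyte-like level was 83.2 (69.1 to 99.4), giving a log2 ratio of 0.40 (0.03 to 0.77). Endothelial-like cells were at 25.9 (16.6 to 38.5) in control and 46.2 (33.7 to 61.8) in ACD, or a log2 ratio of 0.84 (0.09 to 1.61). Melanocyte-like cells moved the other way, at 36.0 (25.2 to 49.8) and 19.2 (11.7 to 29.6), with a log2 ratio of -0.91 (-1.77 to -0.08). The intervals of the 2 libraries overlapped in each of these 3 classes. Muscle satellite-like cells had too few UMIs to be counted as measured (28 and 17 UMIs), and were at 28.0 (16.3 to 44.8) in ACD, below their control interval, with a log2 ratio of -1.52 (-2.48 to -0.60).

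*Hk2* (ENSMUSG00000000628, chr6:82725025-82774454 on the minus strand) encodes hexokinase 2, which traps glucose in the cell as its phosphate. In control it was highest in T/NK/ILC-like lymphocytes, at 131 (119 to 144) UPM, followed by mononuclear phagocyte-like cells at 95.5 (71.3 to 125), whose interval overlapped. In ACD these classes were at 49.0 (46.1 to 52.1) and 45.4 (36.8 to 55.4), log2 ratios of -1.42 (-1.59 to -1.26) and -1.07 (-1.57 to -0.56). The order of the classes was therefore different in ACD, with fibroblast-like cells first at 60.4 (56.7 to 64.4), against 55.2 (52.4 to 58.2) in control. The next, muscle satellite-like cells at 59.3 (41.5 to 82.0) in ACD, did not differ from them beyond counting error. Chondrocyte-like cells had little *Hk2*, 11.9 (10.8 to 13.1) and 9.77 (8.66 to 11.0). The lowest class was endothelial-like, at 4.32 (1.18 to 11.1) and 4.11 (1.12 to 10.5), which is also the most that free RNA could have added there.

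*Pfkfb3* (ENSMUSG00000026773, chr2:11471433-11554077 on the minus strand) encodes the enzyme that makes fructose 2,6-bisphosphate, the strongest activator of glycolytic flux, and is known in vessel sprouting. Its highest levels were in pericyte-like and endothelial-like cells. Of the endothelial-like cells, 98.6% in control and 96.9% in ACD lay in 1 cluster led by *Ccl21a*, *Cldn5*, *Mmrn1* and *Lyve1*, of which *Ccl21a*, *Mmrn1* and *Lyve1* are known from lymphatic vessels, and lymphatic and blood endothelium were not told apart here. Pericyte-like cells were at 85.5 (68.9 to 105) UPM in control and 57.6 (42.6 to 76.1) in ACD, giving a log2 ratio of -0.57 (-1.10 to -0.06). Endothelial-like cells were at 63.7 (48.5 to 82.1) and 99.6 (80.8 to 122), or a log2 ratio of 0.65 (0.16 to 1.14). VSMC-like cells (vascular smooth muscle) had less of it, 30.4 (21.7 to 41.4) and 17.6 (12.4 to 24.4), with a log2 ratio of -0.79 (-1.48 to -0.10). In control the pericyte-like and endothelial-like intervals overlapped, and in ACD they did not.

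*Pgk1* (ENSMUSG00000062070, chrX:106187100-106203699 on the plus strand) and *Ldha* (ENSMUSG00000063229, chr7:46841475-46855627 on the plus strand) encode phosphoglycerate kinase and the lactate dehydrogenase subunit of anaerobic glycolysis. *Pgk1* was highest in T/NK/ILC-like lymphocytes, at 50.8 (43.4 to 59.0) UPM in control and 80.1 (76.3 to 84.0) in ACD, giving a log2 ratio of 0.66 (0.43 to 0.90). It was also higher in ACD in mononuclear phagocyte-like cells (0.92 [0.11 to 1.84], 14 and 104 UMIs) and in fibroblast-like cells (0.52 [0.28 to 0.76]). *Ldha* was at 469 (446 to 492) and 616 (606 to 627) in T/NK/ILC-like lymphocytes, or a log2 ratio of 0.40 (0.32 to 0.47). Its ratio was 0.80 (0.53 to 1.09) in mononuclear phagocyte-like cells and 0.83 (0.34 to 1.35) in mast cell-like cells, which had only 43 and 158 UMIs. In chondrocyte-like cells it ran the other way, from 431 (424 to 438) to 388 (381 to 396), with a log2 ratio of -0.15 (-0.18 to -0.11). Both genes have processed pseudogenes in the annotation, of which only *Pgk1-rs7* (12 UMIs in each library) was in the count tables, so reads shared with the other copies leave these 2 levels uncertain.

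*Vegfa* (ENSMUSG00000023951, chr17:46016993-46032369 on the minus strand) encodes the main growth factor of vessels and *Adm* (ENSMUSG00000030790, chr7:110627661-110629820 on the plus strand) the vasodilator peptide adrenomedullin. *Vegfa* was highest in muscle satellite-like cells (126 [91.8 to 169.7] UPM in control) and in fibroblast-like cells (99.99 [96.2 to 104]), and fibroblast-like cells in ACD were at 94.3 (89.6 to 99.2). Both mural classes were lower in ACD, with log2 ratios of -0.68 (-1.36 to -0.02) in pericyte-like and -0.74 (-1.24 to -0.23) in VSMC-like cells. In keratinocyte-like cells *Vegfa* was at 39.2 (31.0 to 48.7) and 58.5 (46.7 to 72.3), giving a log2 ratio of 0.58 (0.12 to 1.04), but with every cell thinned to 2000 UMIs this ratio changed sign to -0.20. *Adm* was highest in endothelial-like cells in control, at 138 (115 to 164), and was at 69.8 (54.2 to 88.5) in ACD, or a log2 ratio of -0.98 (-1.43 to -0.55), and these intervals did not overlap. Fibroblast-like cells, at 83.1 (79.6 to 86.7) and 95.3 (90.5 to 100.2), were then the highest class in ACD. They held 53.6% of all *Adm* UMIs in control and 48.2% in ACD.

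*Bnip3* (ENSMUSG00000078566, chr7:138890836-138909519 on the minus strand) encodes a mitochondrial protein that marks mitochondria for removal by autophagy. Chondrocyte-like cells stood above every other of the 13 classes, at 114 (110.3 to 117) and 118 (114 to 122) UPM, and held 61.4% and 61.9% of all its UMIs. The next class, Schwann-like, was at 69.2 (51.9 to 90.6) and 58.8 (44.3 to 76.5). Fibroblast-like cells were lower in ACD (-0.40 [-0.55 to -0.25]), as were T/NK/ILC-like lymphocytes (-0.87 [-1.24 to -0.47], 74 and 255 UMIs). Within single lymphocyte clusters, however, the *Bnip3* ratio was -0.19 (-0.81 to 0.45) in that led by *Il17a*, 0.07 (-0.70 to 0.85) in that led by *Cd7* and 0.56 (-1.34 to 3.63) in that led by *Cd3d*, so a difference was not detectable within them. The *Cd7* cluster, at 64.3 (42.4 to 93.6) and 67.3 (46.9 to 93.6) UPM, held 36.5% of the class's *Bnip3* UMIs in control and 13.7% in ACD. Endothelial-like cells were higher, at 16.2 (9.06 to 26.7) and 39.0 (27.6 to 53.6), with a log2 ratio of 1.27 (0.37 to 2.24) that rests on 15 and 38 UMIs. It was 0.39 with every cell thinned to 2000 UMIs, and between 0.48 and 0.54 with all deposited barcodes, with Leiden clusters as classes or with 1 marker more in every gate.

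*Ndrg1* (ENSMUSG00000005125, chr15:66929318-66969640 on the minus strand) encodes a cytoplasmic stress-responsive protein known for its part in myelin upkeep, and mutations in the human gene cause a demyelinating neuropathy. Schwann-like cells of the myelinating kind were at 1525 (1438 to 1615) UPM in control and 1485 (1408 to 1565) in ACD, far above glia-like cells of the non-myelinating kind at 276 (208 to 361) and 295 (236 to 363). After Schwann-like cells came mast cell-like cells (722 [577 to 893] and 822 [712 to 945]), and after them endothelial-like cells (538 [492 to 588] and 361 [325 to 401]). The intervals of these last classes overlapped in control and not in ACD. T/NK/ILC-like lymphocytes had the least, 26.6 (21.3 to 32.8) and 26.9 (24.7 to 29.2). In ACD pericyte-like cells, at 29.4 (19.0 to 43.3), did not differ from them beyond counting error. Endothelial-like cells and both mural classes were lower in ACD, with log2 ratios of -0.58 (-0.78 to -0.38) in endothelial-like, -1.03 (-1.76 to -0.35) in pericyte-like (64 and 25 UMIs) and -0.89 (-1.22 to -0.55) in VSMC-like cells. Melanocyte-like cells were lower as well (-0.57 [-0.85 to -0.31]), whereas chondrocyte-like cells were slightly higher (0.25 [0.16 to 0.34]).

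**Figure D2:**
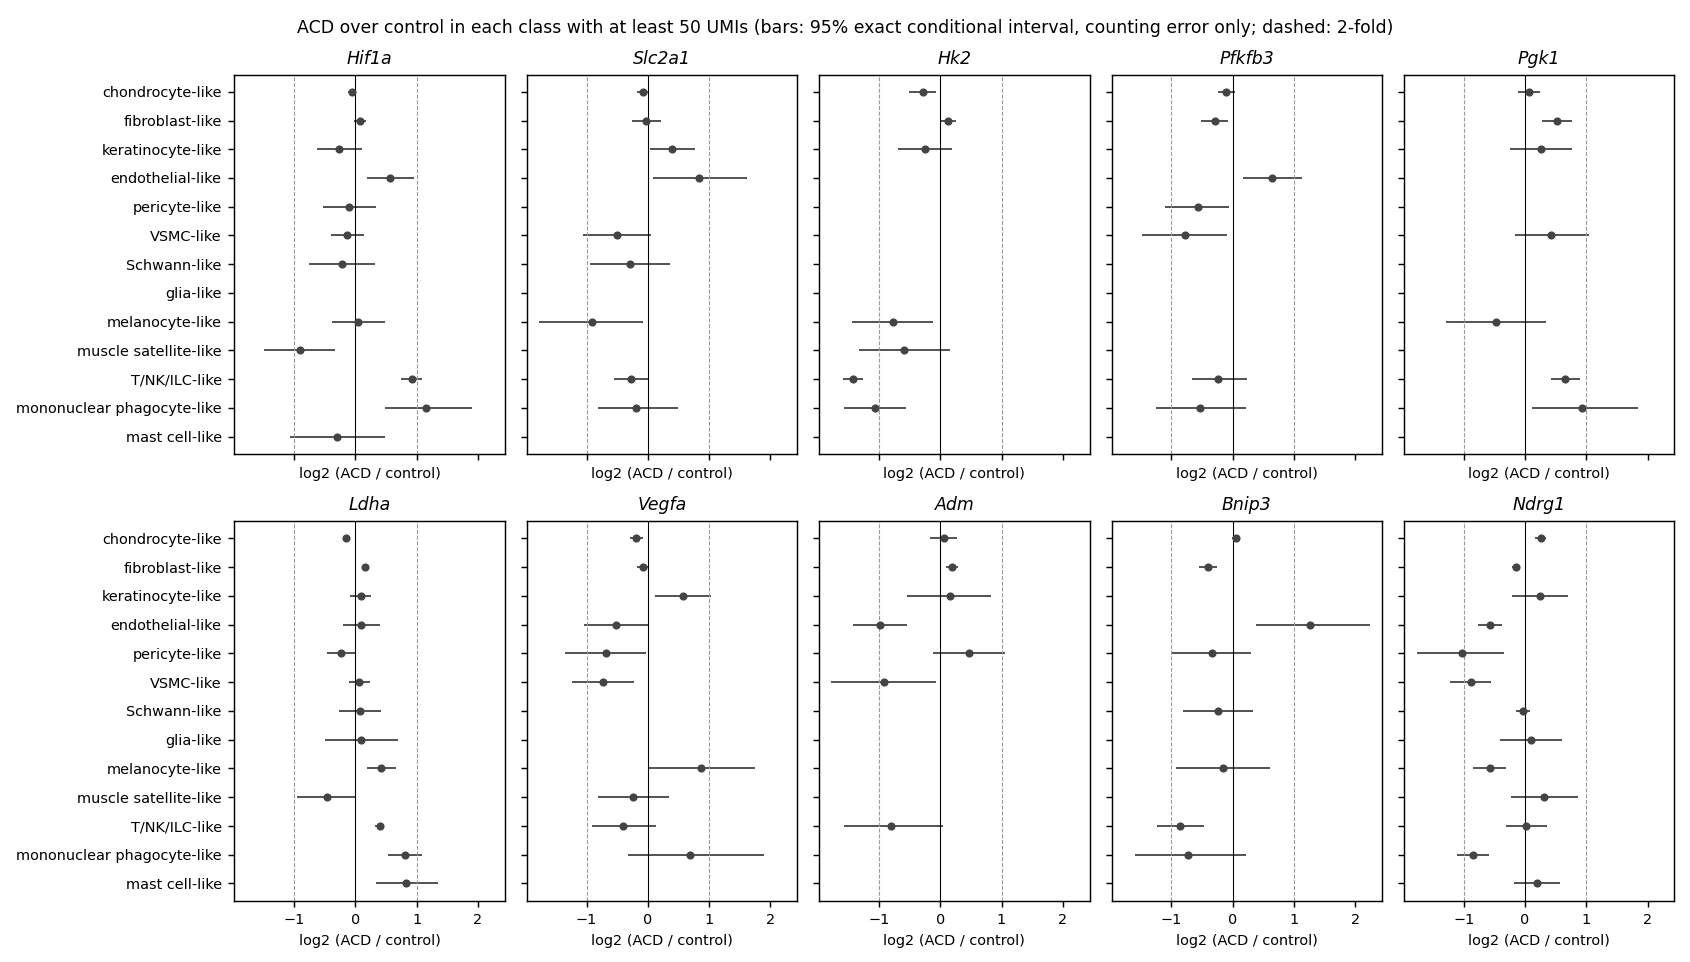
ACD level over control level of each gene (x axis, log2) in each class (y axis) in which the gene had at least 50 UMIs. Points are ratios, bars are 95% exact conditional intervals and dashed lines mark 2-fold. *Hk2* in T/NK/ILC-like lymphocytes (-1.42) lies furthest below 0, and *Hif1a* is above 0 in lymphocytes (0.92) and mononuclear phagocyte-like cells (1.15).

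Chondrocyte-like cells held the largest share of the members' summed UMIs in both libraries, 40.5% in control and 28.2% in ACD, where the class had 38.5% and 29.2% of all UMIs. In chondrocyte-like cells, all 10 genes were measured and none was past 2-fold, where 0.358% of the 12586 genes measured in the class were past 2-fold higher and 0.00795% past 2-fold lower. The median log2 ratio, with 10 UPM added, was -0.06 over the members and -0.03 over all genes. Within the class, however, the levels of several members differed from cluster to cluster, the clusters having been made without the genes of any list. Every cell compared here passed the chondrocyte-like gate. The clusters led by *Angptl7*, by *Cilp2* and *Ucma*, and by *Gdf5* were, as whole clusters, not named chondrocyte-like by the class markers. That led by *Angptl7* also held 91 control and 81 ACD fibroblast-like cells. In the cluster led by *Corin*, *Fgfr3* and *Acan*, aggrecan being the proteoglycan of mature cartilage, *Slc2a1* was at 109.9 (102 to 118) UPM in control and 89.2 (81.8 to 97.2) in ACD. In the cluster led by *Angptl7* and *Cilp2* it was at 34.0 (26.5 to 42.9) and 16.9 (11.9 to 23.3). *Bnip3* followed the same order, with 156 (147 to 166) and 164 (154 to 175) in the first cluster and 53.4 (43.9 to 64.3) and 49.9 (41.0 to 60.2) in the second. *Adm* ran the opposite way, at 1.96 (1.04 to 3.35) and 5.11 (3.45 to 7.29) against 43.2 (34.7 to 53.1) and 25.6 (19.4 to 33.3). *Ndrg1* was also higher in the second, at 78.6 (67.0 to 91.7) and 98.9 (86.1 to 113) against 60.4 (54.6 to 66.6) and 58.1 (52.1 to 64.6). *Hk2*, at 14.9 (12.1 to 18.1) and 12.1 (9.44 to 15.3) against 11.2 (7.07 to 16.7) and 10.1 (6.31 to 15.2), had overlapping intervals in these 2 clusters, but was at 8.45 (6.01 to 11.5) in control in the cluster led by *Cilp2* and *Ucma* and at 4.20 (2.10 to 7.52) in ACD in the one led by *Gdf5* and *Mpped2*, both below the *Corin* interval.

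The *Corin* cluster held 15.7% of control chondrocyte-like cells (690 of 4390) and 36.6% of the class's *Slc2a1* UMIs, and its median of 8854 UMIs per cell was above the class median of 7518. *Ldha* was at 622 (603 to 641) in its control cells and 503 (485 to 522) in its ACD cells, giving a log2 ratio of -0.31 (-0.37 to -0.24), while in the cluster led by *Cilp2* and *Ucma* it was at 283 (268 to 299) and 304 (285 to 324). In the same *Corin* cluster *Pfkfb3* was lower in ACD, with a ratio of -0.89 (-1.23 to -0.56). *Slc2a1* was lower there by less (-0.30 [-0.47 to -0.14]), and higher in the cluster led by *1520401A03Rik* and *Col2a1* (0.51 [0.30 to 0.73]). *Pfkfb3* was higher in the cluster led by *Cilp2* and *Ucma* (0.50 [0.14 to 0.86]). *Adm* was higher in ACD in the *Corin* cluster (1.38 [0.40 to 2.45]) and lower in the *Angptl7* cluster (-0.75 [-1.26 to -0.25]), and *Ndrg1* was higher in the *Cilp2*, *Ucma* cluster (0.52 [0.25 to 0.79]) and lower in the *Col2a1* cluster (-0.28 [-0.54 to -0.02]). The class ratios thus sum over clusters that differ in level and, for *Slc2a1*, *Pfkfb3*, *Adm* and *Ndrg1*, in sign.

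**Figure D3:**
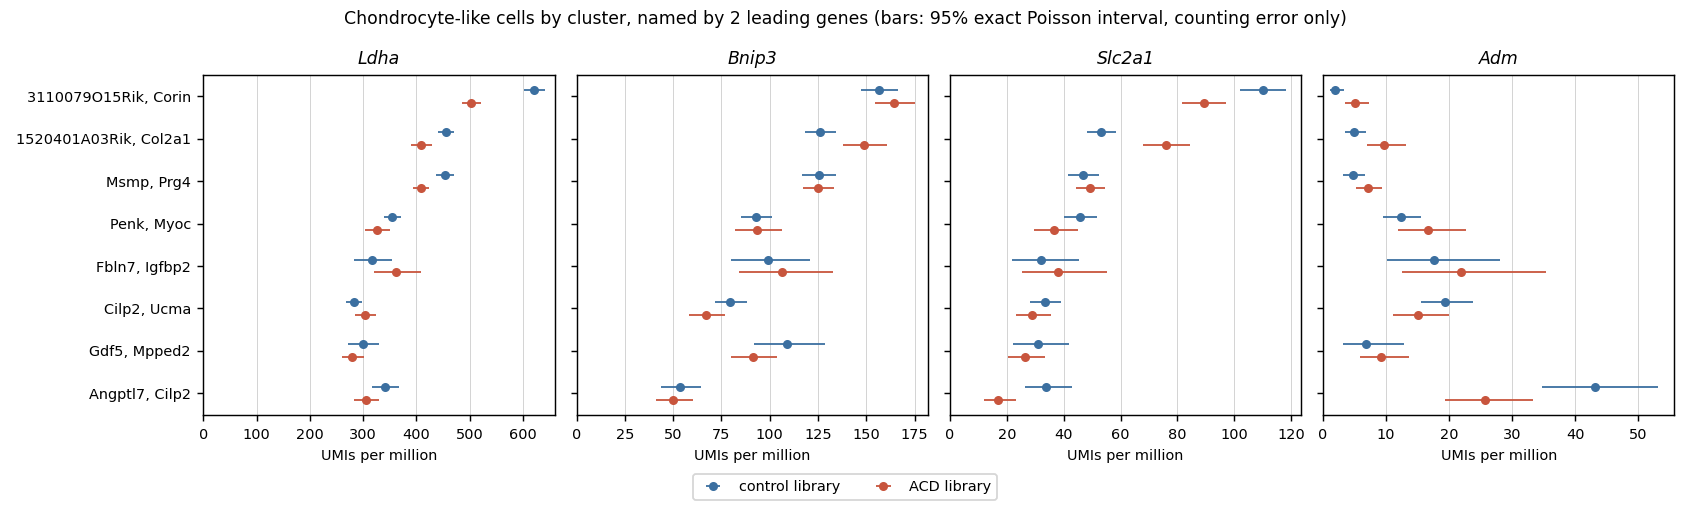
Level of *Ldha*, *Bnip3*, *Slc2a1* and *Adm* (x axis, UPM) in the clusters of chondrocyte-like cells (y axis, named by their leading genes) in control and ACD, with 95% exact Poisson bars. *Slc2a1* and *Bnip3* are highest in the *Corin* cluster and lowest or near lowest in the *Angptl7* cluster, and *Adm* is the reverse. The *Angptl7* cluster as a whole was not named chondrocyte-like by the class markers.

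The sequences upstream of 4 genes are given: *Ldha*, *Bnip3* and *Slc2a1*, whose levels were highest in the *Corin* cluster in both libraries, and *Hk2*, the gene called in lymphocytes. They are RefSeq sequence of GRCm38.p6, each read 5′ to 3′ on the strand of the gene, and up to 250 bases before the start are shown without bases that lie in an annotated exon. Capitals mark the core of the hypoxia response element in its 2 usual spellings, ACGTG and GCGTG, on either strand (read on the other strand they appear as CACGT and CACGC). *Ldha* is shown at chr7:46845554-46845803 on the plus strand, *Bnip3* at chr7:138909520-138909756 on the minus strand, *Slc2a1* at chr4:119108495-119108710 on the plus strand and *Hk2* at chr6:82774455-82774704 on the minus strand.
Ldha: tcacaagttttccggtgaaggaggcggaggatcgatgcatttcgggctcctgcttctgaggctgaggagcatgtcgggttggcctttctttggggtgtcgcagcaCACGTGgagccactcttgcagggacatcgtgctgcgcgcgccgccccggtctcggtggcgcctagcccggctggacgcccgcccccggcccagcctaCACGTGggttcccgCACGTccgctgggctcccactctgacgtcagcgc
Bnip3: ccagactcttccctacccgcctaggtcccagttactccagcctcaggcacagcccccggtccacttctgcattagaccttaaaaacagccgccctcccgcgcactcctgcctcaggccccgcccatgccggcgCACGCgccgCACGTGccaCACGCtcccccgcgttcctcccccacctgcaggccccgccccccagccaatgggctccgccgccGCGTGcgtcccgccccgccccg
Slc2a1: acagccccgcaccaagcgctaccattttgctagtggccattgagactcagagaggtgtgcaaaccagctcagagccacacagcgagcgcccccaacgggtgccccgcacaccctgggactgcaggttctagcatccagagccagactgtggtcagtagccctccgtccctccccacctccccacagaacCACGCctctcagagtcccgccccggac
Hk2: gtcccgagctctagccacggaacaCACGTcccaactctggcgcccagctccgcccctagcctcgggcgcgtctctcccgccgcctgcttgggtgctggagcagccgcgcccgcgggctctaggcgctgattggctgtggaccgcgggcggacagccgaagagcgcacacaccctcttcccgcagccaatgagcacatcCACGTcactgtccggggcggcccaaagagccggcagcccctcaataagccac

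*Ldha* and *Bnip3* had 5 matches each in these bases, *Hk2* had 2 and *Slc2a1* had 1; CACGTG, which reads the same on both strands, counts on each. A further upstream entry of *Ldha*, at chr7:46846832-46847081, is not shown and had 1 match. Of 12 upstream sequences of the members, 11 held at least 1 match in 250 bases, and so did all 9 genes that had an entry, *Ndrg1* having none. These counts, like the background below, take all 250 bases, including any in annotated exons. *Vegfa* held 0 matches at chr17:46032378-46032627 and 2 at chr17:46025164-46025413, an entry whose first base already lies in an annotated exon. The only match of the *Pfkfb3* entry at chr2:11553930-11554179 lay beyond its first exon base. Of all 32851 upstream sequences of the same length, 38.6% held one (16.6% ACGTG and 28.2% GCGTG). The members' sequences were richer in G and C, with a median of 64.6% against 52.4%, and among the 14300 sequences with at least 54.4% G and C, the lowest value of a member, 57.2% held a match. A match is a description of letters, and binding was not measured.

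Fibroblast-like cells (dFBs) kept all 10 genes within 1.5-fold of their control level. None was past 2-fold, where 0.817% of the 11994 genes measured in the class were past 2-fold higher and 0.142% past 2-fold lower. The largest differences were in *Pgk1* (log2 ratio 0.52 [0.28 to 0.76]) and *Bnip3* (-0.40 [-0.55 to -0.25]), and *Adm* was at 0.20 (0.10 to 0.29). Within the 6 clusters compared, *Pgk1* ratios ran from -0.06 to 0.68, each with an interval across 0. Levels also differed between the clusters of the class. *Hk2* was at 122 (110.0 to 134) UPM in control and 123 (109 to 139.5) in ACD in the cluster led by *Mfap5* and *Pi16*, which mark adventitial progenitors, but at 14.8 (10.02 to 20.9) and 11.7 (8.13 to 16.4) in the cluster led by *Coch* and *Crabp1*. *Ndrg1* was highest in control in the cluster led by *Cyp2f2* and *Aldh1a1*, at 291 (276 to 306), and was at 195 (165 to 229) there in ACD. In that cluster *Adm* was at 35.1 (30.2 to 40.5) and 128 (104 to 156), or a log2 ratio of 1.87 (1.502 to 2.23) that rests on 184 and 99 UMIs in 512 and 56 cells. *Pfkfb3* was lower there, with a ratio of -2.25 (-4.15 to -0.86) on 129 and 4 UMIs, and also in the clusters led by *Cthrc1* (-2.46 [-5.53 to -0.58], 117 and 2 UMIs) and *Mfap5* (-0.91 [-1.79 to -0.10]).

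A cluster led by *Saa3* and *Cxcl9* made up 30.7% of ACD fibroblast-like cells (457 of 1490) and held 51.5% of their *Hk2* and 49.6% of their *Adm* UMIs. It was at 121 (113 to 130.01) UPM for *Adm*, 79.6 (72.7 to 86.9) for *Hk2* and 203 (192 to 215) for *Ndrg1*. Without this cluster, an alternative added after seeing the data, the log2 ratios of *Adm* and *Hk2* changed sign to -0.08 and -0.19, those of *Hif1a* and *Slc2a1* changed sign to -0.18 and 0.055, and *Ndrg1* and *Pfkfb3* were at -0.37 and -0.69. Only 3 control fibroblast-like cells fell into this cluster, so the near-equal levels of the class rest in part on a cluster made almost only of ACD cells. The cluster led by *Cthrc1*, at 150 UPM of *Adm* and 73.7 of *Hk2* in control, went from 813 to 63 cells. It was kept in both libraries in this alternative. Whether cells changed state or were replaced was not tested.

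**Figure D4:**
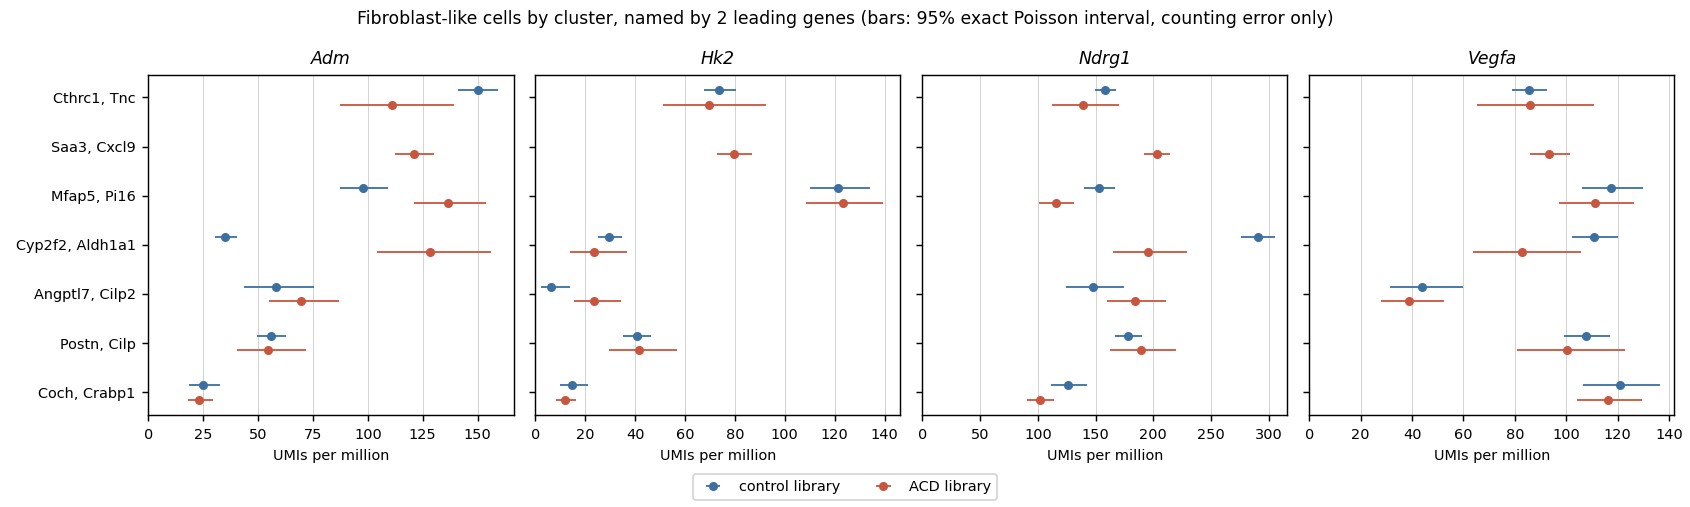
Level of *Adm*, *Hk2*, *Ndrg1* and *Vegfa* (x axis, UPM) in the clusters of fibroblast-like cells (y axis, named by their leading genes) in control and ACD, with 95% exact Poisson bars. The *Saa3*, *Cxcl9* cluster has an ACD point only, and *Adm* in the *Cyp2f2*, *Aldh1a1* cluster goes from 35.1 to 128.

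Of the other resident classes, keratinocyte-like cells had 8 of 10 genes measured and none past 2-fold (1.56% of genes in the class were higher and 0.252% lower). Endothelial-like cells had 8 measured and none past 2-fold, against 2.57% and 1.66% of genes. The ratios of *Pfkfb3*, *Slc2a1*, *Hif1a* and *Bnip3* were above 0 and those of *Adm* and *Ndrg1* below it, as given above, while *Ldha* was at 0.09 (-0.21 to 0.39). *Vegfa* was at -0.52 (-1.05 to 0.00), or -1.13 with every cell thinned to 2000 UMIs. The stress gene *Fos* was past 2-fold lower in the same cells (-1.01), and its part in these ratios was not tested. Hemoglobin transcripts, which mark red cells or their free RNA, were at 96.0 UPM in control and 8555 in ACD endothelial-like cells, and at 76.0 and 6411 in VSMC-like cells. Without mitochondrial and hemoglobin UMIs in the totals, 0 of 93 ratios moved beyond their counting interval.

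Pericyte-like cells (7 genes measured, background 2.04% higher and 2.08% lower) and VSMC-like cells (8 measured, 0.891% and 0.656%) had none past 2-fold. The median log2 ratios, with 10 UPM added, were -0.27 and -0.47 over the members measured, against -0.06 and -0.07 over all genes. *Adm* had a ratio of 0.46 (-0.12 to 1.05) in pericyte-like and -0.92 (-1.78 to -0.07) in VSMC-like cells, and these 2 ratios were not tested against each other. Cells of both classes were deeper in ACD (4480.0 against 8284 and 5596 against 9995 median UMIs), and the part of depth in these ratios was not tested beyond thinning every cell to 2000 UMIs, after which *Vegfa* stood at -1.59 in pericyte-like and -1.496 in VSMC-like cells, and *Adm* at -1.85 in the latter. The stress genes *Fosb* in pericyte-like (-1.29) and *Hspa1a* in VSMC-like cells (1.52) were past 2-fold, and their part in the members' levels was not tested.

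Schwann-like cells had 5 genes measured and none past 2-fold, where 1.23% of genes were higher and 0.176% lower. *Ndrg1*, their leading member, had a ratio of -0.04 (-0.15 to 0.08), a narrow interval around 0. Glia-like cells had only *Ldha* and *Ndrg1* measured, at 0.09 (-0.50 to 0.69) and 0.09 (-0.41 to 0.61) (background 3.19% and 2.7%). Melanocyte-like cells had 8 measured and none past 2-fold (background 1.27% and 0.434%), with lower *Slc2a1*, *Hk2* (-0.77 [-1.44 to -0.12]) and *Ndrg1* beside higher *Vegfa* (0.86 [0.02 to 1.75]) and *Ldha* (0.42 [0.18 to 0.66]). Muscle satellite-like cells had 5 measured and none past 2-fold (background 1.56% and 1.11%). In these 4 classes the heat-shock gene *Hspa1a* of the dissociation stress list was past 2-fold higher in ACD, with log2 ratios between 1.04 and 1.65, and its part in the members' levels was not tested.

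T/NK/ILC-like lymphocytes had all 10 genes measured, none past 2-fold higher (1.45% of 10472 genes) and *Hk2* past 2-fold lower (1.74% of genes). The class had 435 and 1019 UMIs of *Hk2*, and with 10 UPM added its ratio was -1.26. The lower level came together with a different mix of lymphocytes. The cluster led by *Cd7* and *Rgs1*, unnamed here, was at 488 (424 to 560.1) UPM of *Hk2* in control and 356 (306 to 411) in ACD. It held 16.2% of control lymphocytes (125 of 773) with 47.1% of their *Hk2* UMIs, and 3.23% of ACD lymphocytes (104 of 3223) with 18.2%. The cluster led by *Il17a* and *Cd163l1* was at 93.3 (81.0 to 107) and 76.5 (68.1 to 85.7), and went from 65.8% to 19.3% of the class. The cluster led by *Cd3d*, *Nkg7* and *Ifng* was at 27.7 (13.8 to 49.5) and 36.9 (33.3 to 40.7), and went from 12.7% to 44.8%.

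Within single clusters the *Hk2* ratio was nearer 0 than in the class, with log2 ratios of -0.46 (-0.75 to -0.16), -0.29 (-0.55 to -0.02) and 0.42 (-0.44 to 1.43) in the order given. Without the *Cd7* cluster, an alternative added after seeing the data, the ratio of the class was -0.95 and *Hk2* was no longer past 2-fold. In marker-gated subsets *Hk2* was at 97.9 (65.1 to 142) and 43.2 (37.0 to 50.2) in CD4+ T-like cells (53 and 583 cells) and at 110.5 (89.6 to 135) and 76.3 (66.3 to 87.4) in gamma delta T-like cells (184 and 410 cells). In CD4+ T-like cells its ratio was -1.18 (-1.76 to -0.55), past 2-fold lower, where 2.72% of 6480 genes were. In gamma delta T-like cells it was not past 2-fold. The stress genes *Fos* and *Fosb* were also lower in ACD lymphocytes, with ratios of -1.55 and -1.47, and their part in the *Hk2* level was not tested.

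*Hif1a* in the same lymphocytes was higher in ACD, and its level also differed between clusters. It was at 343 (321 to 367) UPM in the ACD cluster led by *Ctla4* and *Tnfrsf4*, genes well known in regulatory T cells, which held 14.7% of the class in ACD (474 cells, against 4 in control). In the *Cd3d*, *Nkg7* cluster it was at 191 (151 to 239) and 192 (184 to 201), with a log2 ratio of 0.01 (-0.32 to 0.36). In the *Il17a* cluster it was at 72.6 (61.9 to 84.7) and 114 (103 to 125), giving a log2 ratio of 0.65 (0.38 to 0.91). The difference was therefore present within the *Il17a* cluster and not detectable within the *Cd3d* cluster at this depth, nor within the *Cd7* cluster (-0.02 [-0.69 to 0.66]). In the marker-gated subsets *Hif1a* was at 157 (115 to 211) and 255 (239 to 271) in CD4+ T-like cells and at 77.5 (60.1 to 98.2) and 117 (104 to 130.1) in gamma delta T-like cells, and in neither did the intervals overlap. *Ldha* in the *Cd3d* cluster was at 543 (473 to 621) and 718 (702 to 734), but its ratio was 0.07 (-0.03 to 0.18) in the *Il17a* cluster and 0.09 (-0.26 to 0.45) in the *Cd7* cluster. *Pgk1* had a ratio of 0.55 (0.24 to 0.87) in the *Il17a* cluster and 0.42 (-0.12 to 1.02) in the *Cd3d* cluster. Size factors put the median shift of this class at -0.16 (log2). Measured against it the *Hif1a* ratio was 1.07 and past 2-fold, and *Pgk1* was at 0.82.

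**Figure D5:**
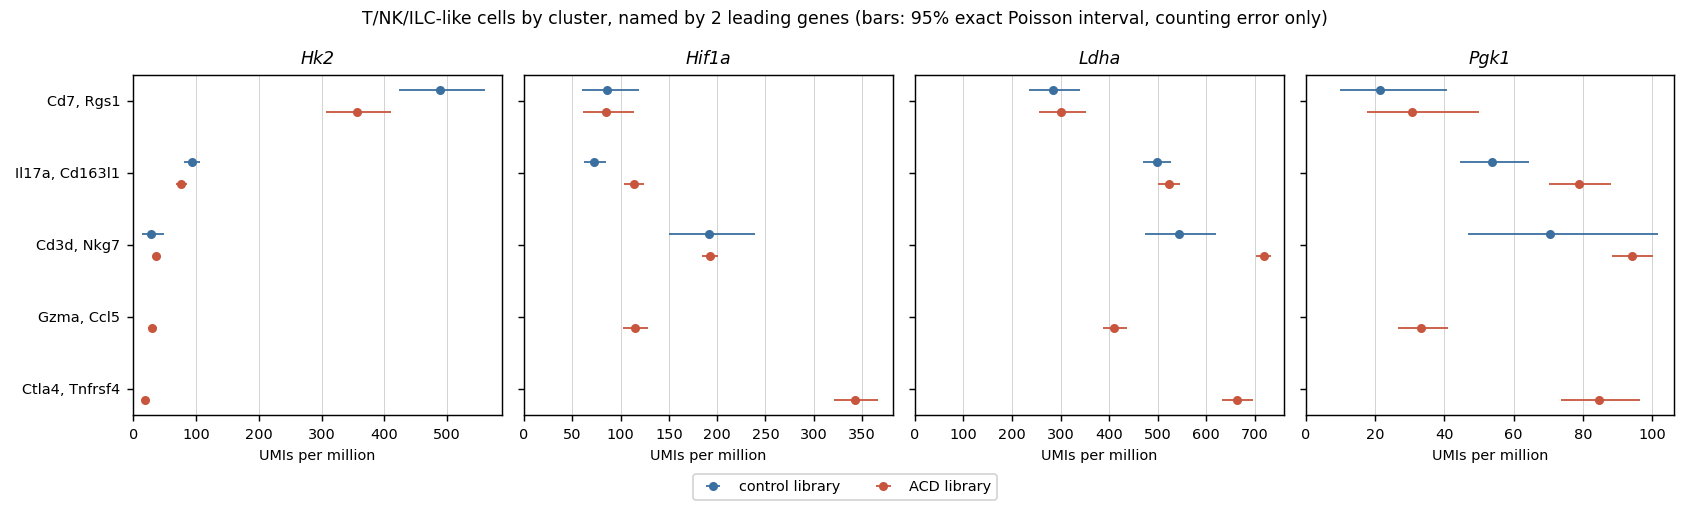
Level of *Hk2*, *Hif1a*, *Ldha* and *Pgk1* (x axis, UPM) in the clusters of T/NK/ILC-like lymphocytes (y axis, named by their leading genes) in control and ACD, with 95% exact Poisson bars. *Hk2* is highest in the *Cd7*, *Rgs1* cluster in both libraries, and *Hif1a* is highest in the ACD cluster led by *Ctla4*; clusters with too few control cells have an ACD point only.

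The share of lymphocytes with at least 1 UMI, taken after thinning each cell to 2000 UMIs and leaving out 38 control and 68 ACD cells that were shallower, was 19.5% (16.7 to 22.5) in control and 8.18% (7.24 to 9.19) in ACD for *Hk2*. For *Hif1a* it was 14.0% (11.6 to 16.7) and 28.7% (27.2 to 30.4). Unthinned shares were 32.5% and 20.9% for *Hk2* and 30.8% and 55.4% for *Hif1a*, at median depths of 3595 and 5305 UMIs. In endothelial-like cells, the class lowest in *Hk2*, the thinned *Hk2* shares were 0.787% (0.0199 to 4.31) and 1.03% (0.0261 to 5.61) at medians of 5042 and 9370.0 UMIs. The *Hk2* shares in lymphocytes were above these in both libraries. Endothelial-like cells were picked as the class lowest in *Hk2* in the same data, so this order was given in advance. How much free RNA added to the lymphocyte shares was not measured. *Hif1a* was found in every class, so no share of a low class is given for it.

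Mononuclear phagocyte-like cells had 9 genes measured and none past 2-fold, where 4.74% of genes were higher and 2.41% lower. Higher *Hif1a*, *Ldha* and *Pgk1* stood beside lower *Hk2* and lower *Ndrg1*, which was at 330.4 (284 to 382) and 182 (164 to 201) UPM, or a log2 ratio of -0.86 (-1.12 to -0.60). With every cell thinned to 2000 UMIs the *Ldha* ratio was 0.22. The stress genes *Fosb* (-1.54) and *Atf3* (-1.18) were past 2-fold lower in these cells, and their part in the ratios was not tested. The class was small, with 76 control and 285 ACD cells, and its subsets shifted. Langerhans-like cells were 11 of the control cells with 34.4% of the *Ndrg1* UMIs, and 6 of the ACD cells. Without them, an alternative added after seeing the data, the ratios were -0.57 for *Ndrg1*, -0.76 for *Hk2*, 1.15 for *Hif1a* and 0.70 for *Ldha*. Mast cell-like cells had 3 genes measured and none past 2-fold (background 2.8% and 3.34%). Their *Ldha* ratio of 0.83 came with median depths of 1003 and 1618 UMIs and hemoglobin at 26557 and 202 UPM. Thinned to 2000 UMIs, which 15 control and 50 ACD cells reached, the ratio was 0.22, and without mitochondrial and hemoglobin UMIs it stayed within its counting interval.

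Over all kept cells, *Pgk1* had the largest ratio of the 10 genes, at 17.1 (16.2 to 17.9) UPM in control and 34.4 (33.2 to 35.6) in ACD, with a log2 ratio of 1.01 (0.92 to 1.10); with 10 added it was 0.71. *Ldha* was at 0.27 (0.25 to 0.29) and *Hif1a* at 0.21 (0.17 to 0.25), while *Vegfa* (-0.55 [-0.61 to -0.49]), *Adm* (-0.45 [-0.52 to -0.38]) and *Bnip3* (-0.36 [-0.41 to -0.30]) were lower. The cell classes also took different shares of the UMIs. T/NK/ILC-like lymphocytes held 3.59% of all UMIs in control and 20.9% in ACD, and held 10.7% and 48.6% of *Pgk1*, 5.21% and 33.0% of *Ldha*, and 3.18% and 30.2% of *Hif1a* UMIs. Fibroblast-like cells, which held the largest share of *Adm*, and chondrocyte-like cells, which held most of the *Bnip3*, went from 25.7% to 12.8% and from 35.9% to 25.8% of kept cells. The sum of the 10 genes was 860.4 (854 to 866) and 889 (883 to 894) UPM.

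The other genes of the pathway were counted by list over the same 13 classes. Of the 19 glycolysis enzymes, which include 3 members, 166 of 247 pairs of a gene and a class were measured, with 2 past 2-fold higher and 2 lower (1.20% each, near the background of all pairs). Both of the higher calls and 1 of the lower were in mononuclear phagocyte-like cells, where *Pfkp* (phosphofructokinase; 44.1 and 104 UPM, 1.24 log2) and *Ldhb* (7.34 and 24.8 UPM, 1.76 log2, on 4 and 53 UMIs) were higher and *Eno3* (an enolase; 80.8 and 26.2 UPM, -1.62 log2) was lower. The other lower call was *Hk2* itself. The median log2 ratio of the glycolysis enzymes, with 10 UPM added, was 0.53 in mononuclear phagocyte-like cells against 0.05 for all genes, and 0.31 against -0.10 in T/NK/ILC-like lymphocytes. It was 0.35 against -0.06 in endothelial-like cells and 0.43 against 0.08 in mast cell-like cells, with 10 and 5 enzymes measured, and between -0.05 and 0.16 in the other 9 classes.

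Lists without a single call in the 13 classes were glucose and lactate transport (41 pairs measured), the enzymes and brakes of fructose 2,6-bisphosphate (17), entry of pyruvate into mitochondria (74), the subunits of hypoxia-inducible factor (33), its oxygen-dependent brakes (86), the relatives of *Bnip3* and *Ndrg1* (80) and those of *Vegfa* and *Adm* (42). Over all pairs of a gene and a class, 1.51% were past 2-fold higher and 0.902% lower, so few calls would fall in lists of these sizes at the background. Of 26 other textbook targets of the factor, 186 pairs were measured, with 6 higher (3.23%) and 4 lower (2.15%). *Angptl4*, a secreted lipase inhibitor, was higher in fibroblast-like (36.1 and 106 UPM, 1.55 log2) and endothelial-like cells (45.3 and 106 UPM, 1.22 log2). *Bhlhe40*, a transcription factor, was higher in T/NK/ILC-like lymphocytes (124 and 261 UPM, 1.08 log2) and mononuclear phagocyte-like cells (86.3 and 196 UPM, 1.18 log2), and *Mif*, a cytokine, in the latter (196 and 451 UPM, 1.20 log2). *Hmox1*, heme oxygenase, was higher in keratinocyte-like cells (6.36 and 27.5 UPM, 2.11 log2, on 13 and 40 UMIs). Hemoglobin transcripts were at 49.4 UPM in control and 10788 in ACD in these cells, and their part in this ratio was not tested.

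Among the lower targets were *Lox*, the collagen crosslinking enzyme, in pericyte-like cells (119 and 48.2 UPM, -1.31 log2), *Cxcl12* in glia-like cells (312 and 56.9 UPM, -2.45 log2, on 61 and 17 UMIs) and *Ero1l*, an oxidase of the endoplasmic reticulum, in T/NK/ILC-like lymphocytes (132 and 59.7 UPM, -1.15 log2). The receptors of the secreted members had 49 pairs measured, with 2 higher and 2 lower (4.08% each). In endothelial-like cells the VEGF receptor gene *Flt1* (45.3 and 128 UPM, 1.502 log2) and the coreceptor *Nrp1* (22.7 and 80.1 UPM, 1.82 log2) were higher in ACD. *Adm* was lower in the same cells, while *Vegfa*, at -0.52, was at the edge of its counting error and at -0.20 with a mean over cells. In T/NK/ILC-like lymphocytes *Ramp1*, counted in this list but an accessory protein of the CGRP receptor, was lower (526 and 137 UPM, -1.94 log2). *Nrp2* was lower in mononuclear phagocyte-like cells (75.3 and 28.1 UPM, -1.42 log2). Of the 11 genes of the dissociation stress list, all 143 pairs were measured, with 8 higher (5.59%) and 6 lower (4.20%).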

How the data were processed

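Single-cell RNA-seq was analysed from 1 control and 1 ACD library of mouse ear skin. The authors made the deposited files with Cell Ranger (version 3.1.0 in the submitters' processing notes) on mm10, and each file holds raw UMI counts per gene and barcode, with no normalization. Deposited barcodes numbered 12895 and 13163 with 99037698 and 126566870 UMIs in all, 12213 and 11665 passed the limits given above, and the methods of the study state 9871 and 8370 cells. No deposited column of another series was used.

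The 10 members, the gene lists and the marker lists were chosen with earlier results of these data known. Gate thresholds were set after the files were seen, from marker genes alone. Clusters were made with the Leiden method at a resolution of 1.5 with list genes left out. Members were all named, and other pathway genes were named only past 2-fold in a class, at most the 3 largest in each direction for each list and class, and 1 gene of the target list is not reported here by name. Intervals were exact (Poisson for levels, conditional binomial for ratios, Clopper-Pearson for shares), and the procedure was tested on simulated data. Positions came from GENCODE M21 and upstream sequences from RefSeq, both GRCm38. Python 3.11.15, numpy 2.4.6, scipy 1.17.1, pandas 2.3.3, scanpy 1.11.5, leidenalg 0.10.2 and matplotlib 3.10.9 were used. The alternatives tried were other barcode filters, doublet removal, clusters or stricter gates as classes, size factors, a mean over cells, thinning, other totals, folds, added levels and UMI minimums, and leaving out shared barcodes or cell subsets.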

Additional observations from a re-analysis of the deposited data

Results flagged for a closer look

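The genes named here had a ratio past 1.5-fold in 1 class and past 1.5-fold the other way in another, each with a counting interval clear of 0. The differences between classes were not tested, since each class has 1 library per condition. *Hif1a* had log2 ratios of 0.92 in lymphocytes (T/NK/ILC-like), 1.15 in mononuclear phagocyte-like cells and -0.91 in muscle satellite-like cells. *Slc2a1* was at 0.84 in endothelial-like and -0.91 in melanocyte-like cells. *Vegfa* was at 0.86 in melanocyte-like cells, -0.68 in pericyte-like and -0.74 in VSMC-like cells. *Bnip3* was at 1.27 in endothelial-like and -0.87 in T/NK/ILC-like cells, but within single lymphocyte clusters its ratios were -0.19, 0.07 and 0.56, each with an interval across 0. *Pfkfb3* was at 0.65 in endothelial-like and -0.79 in VSMC-like cells. These 12 ratios kept their sign under every alternative tried for them, although *Bnip3* in endothelial-like cells fell to 0.39 with every cell thinned to 2000 UMIs.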

How the results depend on the processing

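The 2 counts of members past 2-fold in 13 classes (0 higher and 1 lower of 93 pairs) varied as follows, and the causes were not tested unless the setting itself shows them. The lower count was 2 of 97 pairs with all deposited barcodes (*Adm* in endothelial-like cells added), against 0.911% of all pairs of a gene and a class. It was 3 of 107 with Leiden clusters in place of gates, against 0.956% (*Adm* in endothelial-like and *Hk2* in mononuclear phagocyte-like cells added). With 1 marker more in every gate it was 3 of 94, against 1.07% (*Ndrg1* in pericyte-like and *Hif1a* in muscle satellite-like cells added). With at least 500 genes and under 5% mitochondrial UMIs, 1 of 85 pairs was higher (*Bnip3*, endothelial-like) and 2 were lower. The shares over all pairs were 1.58% and 1.03%. Size factors gave 1 higher of 93 pairs, against 1.58%, and thinning to 2000 UMIs 1 higher of 52, against 1.68% (both *Hif1a* in T/NK/ILC-like cells). A mean over cells gave 1 higher and 3 lower, against 1.61% and 0.941% of all pairs. An added level of 1 in place of 10 gave 2 higher and 3 lower, against 2.61% and 2.23%. At least 20 UMIs in place of 50 gave 1 higher and 2 lower of 109 pairs, against 1.67% and 1.04%. A threshold of 1.5-fold gave 8 higher and 10 lower of 93 pairs, both above the shares of 4.11% and 4.89% over all pairs. Leaving out the cluster led by *Cd7* and *Rgs1*, chosen after seeing the data like the other omissions, gave 0 lower. *Hk2* in T/NK/ILC-like cells was lower under every alternative, from -1.63 to -0.95. Of 968 ratios recomputed, 898 stayed within the main counting interval. Of the 70 that moved beyond it, 34 came from thinning to 2000 UMIs, which gave 92 ratios. In all, 25 of the 93 pairs changed sign under at least 1 alternative. No paired analysis was possible because each condition is 1 library. Depth limits the small classes most: 37 of 130 pairs had under 50 UMIs.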

Other observations

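Neutrophil-like and basophil-like cells were left out of the comparison because control held 3 and 5 of them. Their ACD levels are given as values. In 62 neutrophil-like cells, *Slc2a1* was at 141 (83.5 to 223) UPM on 18 UMIs. *Hif1a* was at 109.5 (59.9 to 184) on 14 UMIs. *Hk2* and *Adm* had no UMI in these neutrophil-like cells, and the upper limit of their intervals was 28.9 UPM. In 202 basophil-like cells, *Ldha* was at 841 (779 to 906) and *Hk2* at 140.3 (116 to 168), each above its ACD level in the 13 compared classes. *Ndrg1* was at 181 (153 to 212) in the same cells.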
